A study of Mus musculus with 9 samples.

Results

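Gluconeogenesis, the making of glucose from lactate, glycerol and amino acids, is described here in the livers of diabetic mice through 8 genes. The rows were taken by gene symbol from the deposited table of 28517 genes. All 8 listed symbols were found, each in 1 row, and all 8 passed the low-count filter that left 18142 genes for testing. They are the enzyme genes Pck1, G6pc, Fbp1 and Pcx, the transporter gene Slc37a4, and the control genes Ppargc1a, Foxo1 and Gcgr. The RNA came from whole liver of db/db mice, whose leptin receptor is defective and which are therefore obese and diabetic. The groups were given FGF19WT, FGF19ΔKLB or PBS (the vehicle) for 12 weeks, with 3 libraries each, and all of them, vehicle included, are db/db. FGF19 is a hormone of the gut that acts on hepatocytes through an FGF receptor and the co-receptor β-klotho. For the group titled FGF19ΔKLB the table uses the column code F19_HBS, and the labels explain neither the letters HBS nor the change in the protein. Age, sex, dose, feeding state and hour of collection are not given in the sources used here. Nothing in the labels says that the libraries of a group come from separate animals, so p-values measure the spread between these libraries, which may be technical.

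The pathway runs from pyruvate to glucose. Pyruvate carboxylase (Pcx) makes oxaloacetate in mitochondria, the cytosolic phosphoenolpyruvate carboxykinase (Pck1) turns oxaloacetate into phosphoenolpyruvate, and fructose-1,6-bisphosphatase (Fbp1) reverses the committed step of glycolysis. The last step takes place at the endoplasmic reticulum, where the transporter encoded by Slc37a4 carries glucose 6-phosphate inward and the catalytic subunit encoded by G6pc frees glucose from it. In the fasted liver, glucagon acts through its receptor (Gcgr), cAMP and CREB to raise transcription of Pck1, G6pc and the coactivator gene Ppargc1a. The forkhead factor FOXO1 activates G6pc and Pck1 until insulin signalling drives it out of the nucleus. In the liver lobule, gluconeogenic enzymes are known to be most abundant around the portal vein.

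On GRCm38 the genes lie on 7 chromosomes, with G6pc and Gcgr far apart on the same one. Pck1 spans chr2:173153048-173159273 (plus strand) and G6pc spans chr11:101367561-101377903 (plus strand). Fbp1 lies at chr13:62864753-62888282 (minus), Pcx at chr19:4510472-4621752 (plus) and Slc37a4 at chr9:44396852-44402966 (plus). The control genes are Ppargc1a at chr5:51454250-51567704 (minus), Foxo1 at chr3:52268336-52353221 (plus) and Gcgr at chr11:120530699-120538986 (plus). Gcgr overlaps the antisense gene Gm11789, which had 23.5 to 47.8 counts per M counts (CPM). Since the use of strand in counting is not stated, the reads of Gcgr and Gm11789 cannot be told apart. Pcx overlaps Lrfn4 on the other strand, which stayed between 1.44 and 3.17 CPM. Foxo1 overlaps the antisense gene Gm20402, which was not analysed here, and the other overlapping genes reached at most 0.264 CPM.

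The promoters of Pck1, G6pc and Ppargc1a are printed because the 3 genes are classic targets of the glucagon and insulin signals, and Pck1 and G6pc had the widest ranges of all 8 in these livers. The letters are RefSeq's (GRCm38.p6), 5′ to 3′ on the gene's strand, and end before the first annotated start. Capitals mark TGACGT on either strand, the core of the cAMP response element, in Pck1 and Ppargc1a, and TGTTTT, the core of the insulin response unit, in G6pc. The stretches are chr2:173152823-173153047 (plus) for Pck1, chr11:101367466-101367560 (plus) for G6pc and chr5:51567727-51567975 (minus) for Ppargc1a.
Pck1: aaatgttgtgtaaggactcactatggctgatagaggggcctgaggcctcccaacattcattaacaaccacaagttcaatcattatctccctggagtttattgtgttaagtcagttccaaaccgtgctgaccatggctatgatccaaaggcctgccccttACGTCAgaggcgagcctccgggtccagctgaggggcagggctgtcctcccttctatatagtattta
G6pc: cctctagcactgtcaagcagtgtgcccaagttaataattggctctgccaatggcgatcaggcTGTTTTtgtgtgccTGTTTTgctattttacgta
Ppargc1a: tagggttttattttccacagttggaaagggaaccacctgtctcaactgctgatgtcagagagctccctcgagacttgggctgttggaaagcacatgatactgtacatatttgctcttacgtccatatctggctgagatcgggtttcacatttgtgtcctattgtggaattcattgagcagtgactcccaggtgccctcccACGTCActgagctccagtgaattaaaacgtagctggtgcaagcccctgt
Each of the 8 genes had at least 1 RefSeq window of 250 bases before to 50 bases after a start, 11 windows in all. TGACGT, searched on both strands, was in a window of 3 of the 8 genes (Pck1, Ppargc1a and Slc37a4), against 7.51% of all 32851 windows. Its first base stood at -91 from the start in Pck1 and at -50 in Ppargc1a, in both cases on the reverse strand. TGTTTT was in a window of 2 of the 8 genes (G6pc and Slc37a4), against 22.1% of all windows, with forward copies at -188 and -174 in G6pc. The forkhead letters TGTTTAC were in the windows of 0 of the 8 genes, against 3.65% of all windows. The counts of members are per gene and the shares are per window, so Slc37a4 and Pcx, with more than 1 window, had more chances of a match. TGTTTT and TGTTTAC share the letters TGTTT, and a match of letters is not a measured binding site.

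Depth was even across libraries, and the FGF19WT libraries were not alike. Totals were 65.1 to 73.3 M counts. If 1 read pair gives about 4 counts, they stand for about 16.3 to 18.3 M read pairs, a number computed from that factor and not measured. Albumin took 8.60% to 21.1% of the counts and kidney markers (2 of 6 in the table) summed to at most 0.117 CPM. On the first principal component of log2 CPM, which held 51.9% of the variance, FGF19WT libraries 2 and 3 lay at 106 and 135, and the other 7 libraries lay between -47.0 and -10.2. The 12 markers of periportal hepatocytes summed to 10113, 241 and 257 CPM in FGF19WT libraries 1, 2 and 3, against 7106 to 9303 CPM in FGF19ΔKLB and 6983 to 8887 CPM in vehicle. The 14 pericentral markers summed to 7482, 37265 and 36024 CPM in the same FGF19WT libraries, against 2766 to 5215 CPM in FGF19ΔKLB and 6213 to 10654 CPM in vehicle. No marker of either zone was at 0 in all libraries. Fold changes of the 8 genes in FGF19WT against vehicle are therefore given with all libraries, without libraries 2 and 3, and without library 1. In bulk tissue, fewer cells of a type and less RNA per cell cannot be told apart.

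Per length of transcript, the 8 genes covered a wide range of levels. By the median FPKM (fragments per kilobase and per M fragments, computed by the authors) over 9 libraries, Fbp1 (398) and Pck1 (369.7) stood highest. Pcx (76.0) and Gcgr (72.0) followed, then Slc37a4 (46.6) and G6pc (37.9), with Foxo1 (3.23) and Ppargc1a (1.01) lowest. The ranges of neighbours in this order overlapped, for G6pc and Foxo1 by a little (the lowest G6pc library had 4.33 FPKM and the highest Foxo1 library 4.78 FPKM). Foxo1 and Ppargc1a were apart, since every Foxo1 library was above the highest of Ppargc1a (1.55 FPKM). The genes also differed in how far they ranged. The highest library was 62.7 times the lowest for Pck1 and 33.4 times for G6pc on the CPM scale, but 1.65 times for Gcgr, 2.30 times for Foxo1 and 2.55 times for Ppargc1a.

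**Figure D1:**
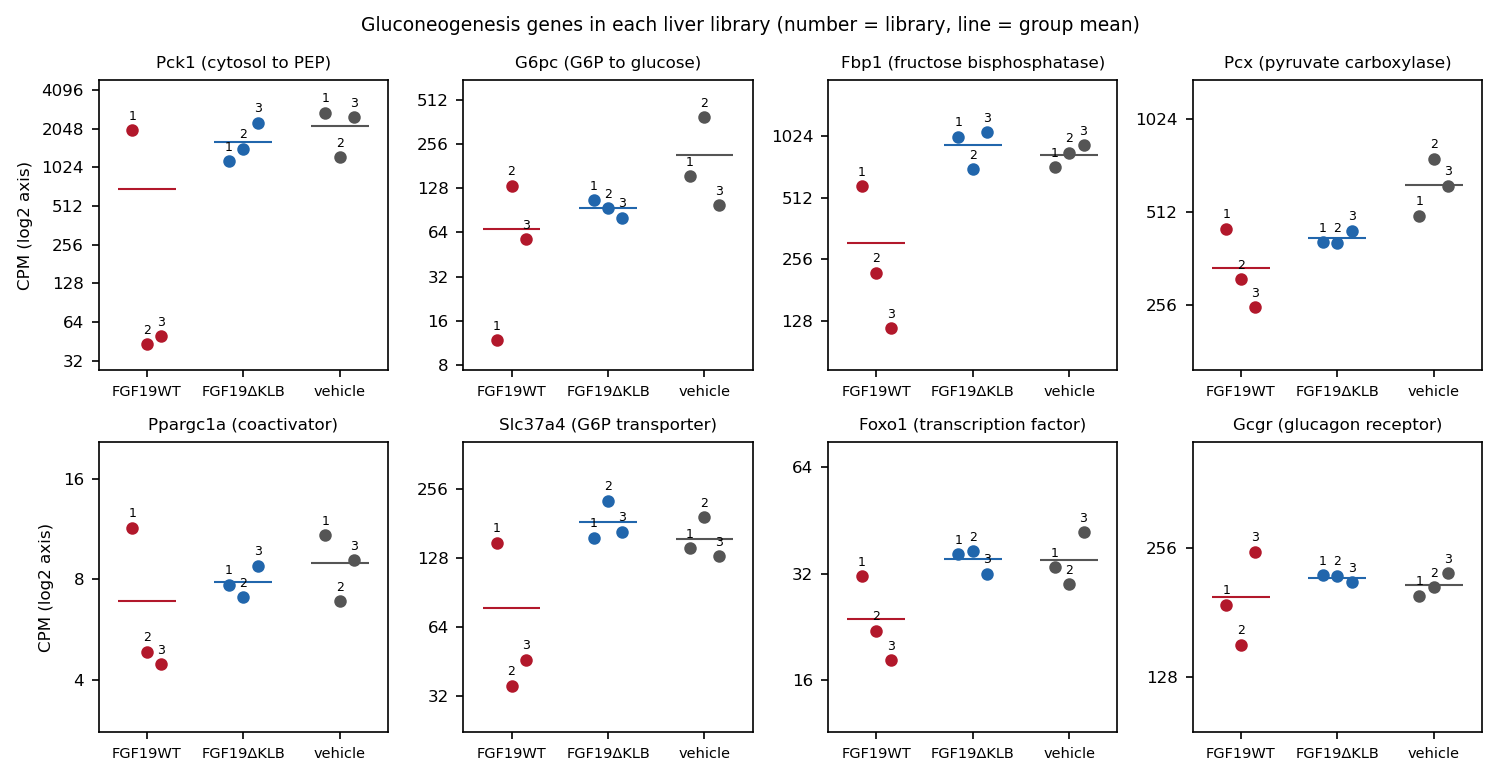
CPM of each of the 8 genes in each library on log2 axes, with FGF19WT, FGF19ΔKLB and vehicle from left to right, a number for each library and a line at the group mean. FGF19WT libraries 2 and 3 are the lowest of all 9 in 6 of the 8 genes, while G6pc is lowest in FGF19WT library 1.

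Pck1 showed the largest split. It had 1993, 43.3 and 49.7 CPM in FGF19WT, 1136, 1426 and 2278 CPM in FGF19ΔKLB, and 2713, 1231 and 2511 CPM in vehicle. FGF19WT library 1 thus lay inside the range of vehicle, and FGF19WT libraries 2 and 3 lay below all other libraries. The group means were 695 ± 1124 CPM in FGF19WT, 1613 ± 593 CPM in FGF19ΔKLB and 2152 ± 804 CPM in vehicle (SD, n = 3 each). The edgeR log2 fold change of FGF19WT against vehicle was -1.63 (SE 1.27, 95% interval -4.53 to 1.27, adjusted p = 0.499), so the difference was within the spread between libraries. With limma, which averages log values, it was -3.55 on log2(FPKM + 1) (SE 1.24, adjusted p = 0.168) and -3.61 on log2(FPKM + 0.1) (SE 1.25, adjusted p = 0.169), again without passing. Without FGF19WT library 1 it was -5.54 (SE 0.49, adjusted p = 0.000215), and with library 1 as the only FGF19WT library it was -0.11 (SE 0.52, adjusted p = 0.994).

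G6pc followed another order of libraries. It had 11.7, 134 and 57.6 CPM in FGF19WT, 106, 94.2 and 81.0 CPM in FGF19ΔKLB, and 155, 392 and 98.1 CPM in vehicle. Here FGF19WT library 1 was the lowest, the library in which Pck1 was highest within its group, and FGF19WT library 2 lay inside the range of vehicle. The means were 67.6 ± 61.5 CPM in FGF19WT, 93.8 ± 12.6 CPM in FGF19ΔKLB and 215 ± 156 CPM in vehicle (SD, n = 3 each). The log2 fold change was -1.67 for FGF19WT against vehicle (SE 0.78, adjusted p = 0.291) and -1.20 for FGF19ΔKLB against vehicle (SE 0.78, adjusted p = 0.753). Without vehicle library 2 the log2 fold change was -0.91 for FGF19WT and -0.43 for FGF19ΔKLB. With FGF19WT library 1 as the only one, FGF19WT against vehicle gave -4.20 (SE 0.95, adjusted p = 0.355), and without that library it gave -1.18. FGF19WT library 1 was below the other 8 libraries in 7.20% of all genes, but by at least the ratio seen for G6pc, 4.91, in only 6 of 9580 genes with a mean of at least 5 CPM (0.0626%), a count made after the value had been seen. In FPKM, Pck1 over G6pc was 119.7, 0.228 and 0.608 in FGF19WT, 7.53, 10.7 and 19.8 in FGF19ΔKLB, and 12.3, 2.21 and 18.0 in vehicle. FGF19WT library 3 was low for both genes: its G6pc was below all FGF19ΔKLB and vehicle libraries, second to library 1. Libraries 1 and 2 differed between the genes, since library 1 was low for G6pc and not for Pck1, and library 2 was low for Pck1 and not for G6pc.

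Fbp1 and Pcx were lower in every FGF19WT library than in every vehicle library. Fbp1 had 581, 220.1 and 118 CPM in FGF19WT, 1011, 705 and 1061 CPM in FGF19ΔKLB, and 719, 847 and 917 CPM in vehicle. Pcx had 452, 309.9 and 252 CPM in FGF19WT, 407, 406 and 445 CPM in FGF19ΔKLB, and 497, 759 and 622 CPM in vehicle. The log2 fold change of FGF19WT against vehicle was -1.43 for Fbp1 (SE 0.51, 95% interval -2.60 to -0.27, adjusted p = 0.191) and -0.89 for Pcx (SE 0.26, 95% interval -1.48 to -0.30, adjusted p = 0.142). Neither passed the threshold over all genes, and 11.6% of all genes tested were lower in this way without overlap. With the DESeq2 Wald test, an alternative tool, Pcx passed (log2 fold change -0.89, adjusted p = 0.0162), at which 9.61% of all genes were called. Leaving FGF19WT library 1 as the only one, the values were -0.51 (SE 0.27) for Fbp1 and -0.47 (SE 0.25) for Pcx, so both stayed on the low side in that library as well, without passing the test.

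Slc37a4, the partner of G6pc at the endoplasmic reticulum, kept closer to Fbp1 than to G6pc across libraries. It had 149.7, 35.5 and 46.1 CPM in FGF19WT, 157, 228 and 167 CPM in FGF19ΔKLB, and 141, 193 and 131 CPM in vehicle. Fbp1 over Slc37a4 in FPKM kept within 4.31 and 11.8 in all libraries, a span of 2.74 times, whereas G6pc over Slc37a4 ran from 0.0927 in FGF19WT library 1 to 4.46 in FGF19WT library 2, a span of 48.1 times. The log2 fold change of Slc37a4 in FGF19WT against vehicle was -1.01 (SE 0.50, adjusted p = 0.312). It was -1.94 without FGF19WT library 1 (SE 0.25, adjusted p = 0.00112) and -0.05 (SE 0.29) with that library alone.

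The control genes spread less. Ppargc1a, which encodes the coactivator PGC-1α, had 11.4, 4.86 and 4.47 CPM in FGF19WT, 7.71, 7.09 and 8.78 CPM in FGF19ΔKLB, and 10.9, 6.88 and 9.12 CPM in vehicle. Foxo1 had 31.4, 22.0 and 18.2 CPM in FGF19WT, 36.4, 37.1 and 32.0 CPM in FGF19ΔKLB, and 33.5, 29.9 and 41.9 CPM in vehicle. FGF19WT library 1 was inside the range of vehicle for Foxo1 and just above it for Ppargc1a, and in both genes the other FGF19WT libraries were the lowest of all. The log2 fold change of FGF19WT against vehicle was -0.37 for Ppargc1a (SE 0.36, adjusted p = 0.588) and -0.55 for Foxo1 (SE 0.22, adjusted p = 0.222). With FGF19WT library 1 as the only one, that of Ppargc1a was on the other side of 0, at 0.35 (SE 0.27, adjusted p = 0.888), and that of Foxo1 was -0.16 (SE 0.21, adjusted p = 0.948). Gcgr, the receptor for glucagon, had 189, 152 and 251 CPM in FGF19WT, 221, 221 and 213 CPM in FGF19ΔKLB, and 198, 208 and 224 CPM in vehicle. Its FGF19WT libraries lay on both sides of vehicle, with a log2 fold change of -0.09 (SE 0.20, 95% interval -0.54 to 0.36, adjusted p = 0.828), and of -0.15 (SE 0.15, adjusted p = 0.915) with library 1 as the only FGF19WT one.

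Over the 8 genes, FGF19WT against vehicle gave 0 calls at an adjusted p under 0.05, where the background was 0.110% (20 of 18142 genes). All 8 log2 fold changes were negative, as were 50.3% of those of all genes, and their median was -0.95, against 0.00 for all genes. The median was -1.17 without FGF19WT library 1, with 8 negative, and with that library as the only FGF19WT one it was -0.15, with 7 negative and 1 positive. Before adjustment, 3 of the 8 (Fbp1, Pcx and Foxo1) had a p under 0.05, as did 18.8% of all genes. FGF19WT libraries 2 and 3 were both below the other 7 libraries in 6 of the 8 genes (all but G6pc and Gcgr), and in 3441 of 18142 genes tested. The SD of log2 CPM was largest in FGF19WT for 8 of the 8 genes, against 63.3% of all genes with no count of 0.

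Without FGF19WT library 1, 14.3% of 19025 genes were called lower in FGF19WT against vehicle and 27.4% in either direction. Of the 8 genes, 6 were called lower in this fit. Besides Pck1 and Slc37a4, these were Fbp1 (log2 fold change -2.30, adjusted p = 0.00140), Pcx (-1.16, adjusted p = 0.00443), Ppargc1a (-0.95, adjusted p = 0.0178) and Foxo1 (-0.81, adjusted p = 0.0120). G6pc (-1.18, adjusted p = 0.165) and Gcgr (-0.07, adjusted p = 0.839) did not pass. Library 1 was singled out after the FGF19WT libraries had been seen to differ. Adjusted p-values without it, here and for other genes and comparisons, rest on the remaining, more alike FGF19WT libraries and add no support. None of the other 8 fits that left out 1 library called any of the 8 genes. The 6-library fit of FGF19WT and vehicle called 0 of the 8 as well, where 1 of 17430 genes was called (0.00574%).

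**Figure D2:**
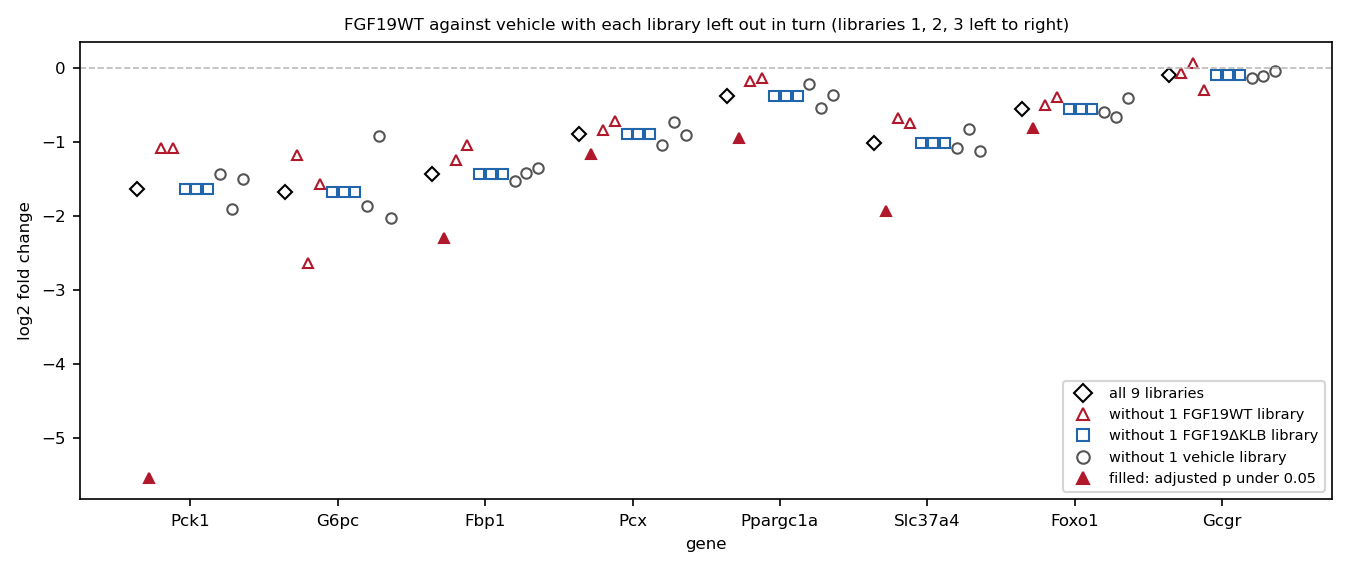
Log2 fold change of FGF19WT against vehicle for each gene, over all 9 libraries and with each library left out in turn; filled symbols passed an adjusted p under 0.05. Only the fit without FGF19WT library 1 has filled symbols, in 6 genes, and Pck1 moves most, between -1.08 and -5.54.

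In FGF19ΔKLB, G6pc and Pcx had the lowest estimates against vehicle, and none of the 8 genes passed the test. The fit called 0 of the 8 genes for FGF19ΔKLB against vehicle, where the background was 0.0110% (2 of 18142 genes). The log2 fold changes were negative in 4 genes and positive in 4, with a median of -0.09, against 0.00 for all genes. Pcx was lower in all 3 FGF19ΔKLB libraries than in all 3 vehicle libraries, at 419 ± 22.0 CPM in FGF19ΔKLB and 626 ± 131 CPM in vehicle (SD, n = 3 each), a pattern found in 12.2% of all genes. Its log2 fold change was -0.58 (SE 0.26, 95% interval -1.16 to 0.01, adjusted p = 0.605). In the 6-library fit, where 1.68% of 17340 genes were called, Pcx again did not pass (adjusted p = 0.147), nor did any other of the 8 genes. For Fbp1 (0.16), Slc37a4 (0.24), Foxo1 (0.00) and Gcgr (0.06) the log2 fold change was at or above 0. The 95% interval of Gcgr ran from -0.39 to 0.51 and that of Pck1 from -3.25 to 2.42, which includes the spread of FGF19WT. The SE of Pck1 in this comparison was 1.24 over 9 libraries, 0.365 in the 6-library fit and 0.339 without FGF19WT library 1, against 0.199, 0.106 and 0.179 for Gcgr. FGF19ΔKLB also had the smallest SD of log2 CPM of the 3 groups in 7 of the 8 genes, all but Fbp1, against 37.0% of the same genes.

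Set against FGF19WT, FGF19ΔKLB had higher estimates in all 8 genes, none past the test. The fit called 0 of the 8 and 0 of 18142 genes (0%), while 2267 genes had an unadjusted p under 0.05 (12.5%) and DESeq2 called 834 (4.60%). The 6-library fit of both FGF19 groups called 0 of the 8, where 1 of 17123 genes was called (0.00584%). Every FGF19ΔKLB library was above every FGF19WT library for Fbp1, Slc37a4 and Foxo1, a pattern found in 7.15% of all genes. The log2 fold change was 1.59 for Fbp1 (SE 0.51, adjusted p = 0.291), 1.25 for Slc37a4 (SE 0.50, adjusted p = 0.361) and 0.56 for Foxo1 (SE 0.22, adjusted p = 0.354). With DESeq2, Fbp1 passed (1.58, adjusted p = 0.0459). Pck1 stood at 1.21 (SE 1.26), G6pc at 0.47 (SE 0.77), Pcx at 0.31 (SE 0.26), Ppargc1a at 0.19 (SE 0.36) and Gcgr at 0.15 (SE 0.20). Without FGF19WT library 1, 5 of the 8 genes were called higher in FGF19ΔKLB (Pck1, Fbp1, Slc37a4, Foxo1 and Ppargc1a), where 10.9% of all genes were. With that library as the only FGF19WT one, 0 were called, and Pck1 (-0.31), Pcx (-0.11) and Ppargc1a (-0.54) had negative estimates. The comparisons share libraries, so their values are not independent of one another.

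**Figure D3:**
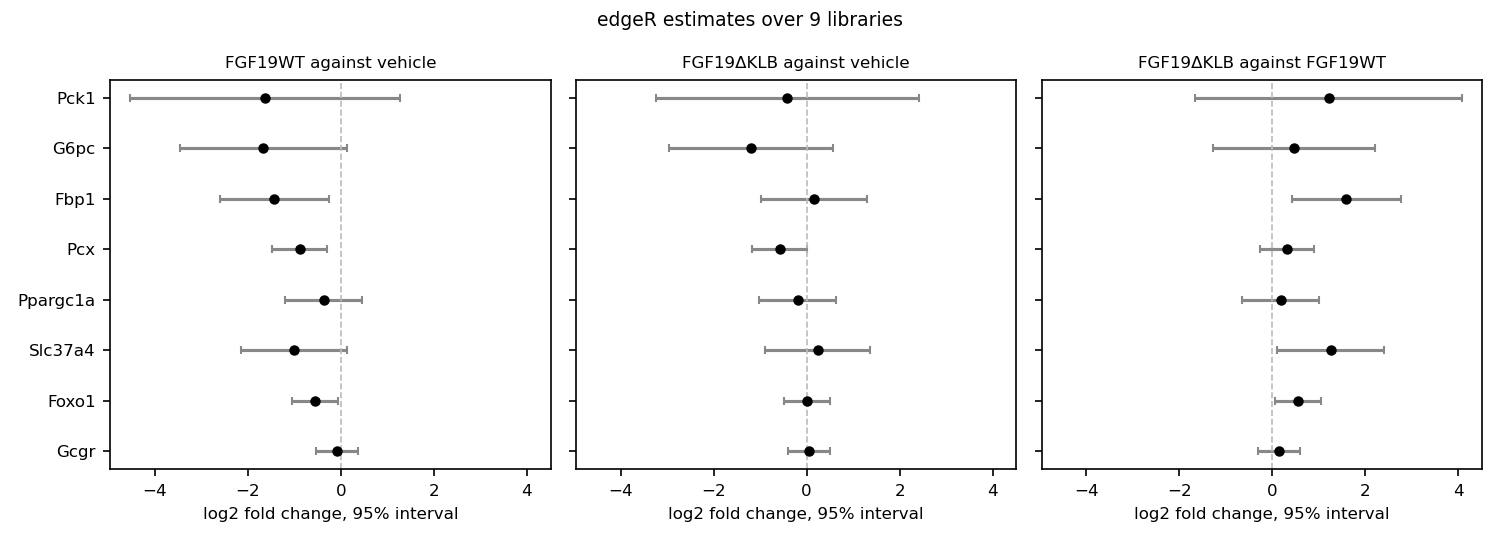
Log2 fold change and 95% interval of the 8 genes from the fit over 9 libraries, for FGF19WT against vehicle, FGF19ΔKLB against vehicle and FGF19ΔKLB against FGF19WT. Pck1 has the widest interval in each comparison and Gcgr the narrowest; the intervals of Fbp1, Pcx and Foxo1 lie below 0 in the first, although no adjusted p passed.

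The other enzymes shared with glycolysis and the paralogous genes showed 0 called of 14 tested in each comparison of the fit over 9 libraries. Pck2, the mitochondrial carboxykinase, ran against Pck1: it had 1.76, 22.1 and 37.2 CPM in FGF19WT, 5.44, 4.19 and 6.75 CPM in FGF19ΔKLB, and 1.67, 2.68 and 1.91 CPM in vehicle. Its high libraries were thus those in which Pck1 was low, and its log2 fold change in FGF19WT against vehicle was 3.29 (adjusted p = 0.129), or 3.82 without FGF19WT library 1 (adjusted p = 0.000157). G6pc3, the widely expressed relative of G6pc, was named for its small unadjusted p and had 6.01 to 11.5 CPM over all libraries. Eno1, a glycolytic enolase that works in both directions, had a log2 fold change of -0.85 (adjusted p = 0.142) in FGF19WT. Without FGF19WT library 1, 3 of the 14 were called higher and 5 lower in FGF19WT than in vehicle. In that fit 27.4% of all 19025 genes were called in either direction, and 14.3% were called lower.

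Genes that bring substrates to the pathway gave 0 called of 20. Ldhb, a lactate dehydrogenase subunit, had 1.92, 60.6 and 55.5 CPM in FGF19WT, against 1.93 to 2.60 CPM in FGF19ΔKLB and 1.86 to 2.10 CPM in vehicle. Slc25a10, the mitochondrial dicarboxylate carrier, had 184, 85.6 and 100.04 CPM in FGF19WT, 135, 146 and 133 CPM in FGF19ΔKLB, and 245, 252 and 205 CPM in vehicle. All libraries of both FGF19 groups were below vehicle for Slc25a10. Of all genes, 11.6% were lower without overlap in FGF19WT and 12.2% in FGF19ΔKLB. The 6-library fit of FGF19ΔKLB and vehicle, in which 1.68% of 17340 genes were called, called Slc25a10 lower (log2 fold change -0.76, adjusted p = 0.0369). In the same fit the alanine aminotransferase Gpt2 was the other called gene of this list (-0.78, adjusted p = 0.0358). Gpd1, the cytosolic glycerol 3-phosphate dehydrogenase, had 141, 253 and 224 CPM in FGF19WT, 254, 183 and 285 CPM in FGF19ΔKLB, and 446, 532 and 286 CPM in vehicle, with a log2 fold change of -1.03 in FGF19WT (adjusted p = 0.150).

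In the glucagon arm downstream of Gcgr, 0 of 20 genes were called over 9 libraries. Nr4a2, a nuclear receptor gene induced by cAMP, was listed at 0.0587, 0.150 and 0.0983 CPM in FGF19ΔKLB, against 0.614, 0.717 and 0.908 CPM in vehicle. In the 6-library fit, where 1.68% of 17340 genes were called, it was called lower in FGF19ΔKLB (-2.85, adjusted p = 0.0475). Its levels stand for few read pairs. Sik2, a kinase that restrains CREB coactivators, had 3.41, 3.31 and 2.41 CPM in FGF19WT, 4.02, 2.77 and 3.18 CPM in FGF19ΔKLB, and 5.89, 5.11 and 6.45 CPM in vehicle, with no overlap between either FGF19 group and vehicle. Lower values without overlap were found in 11.6% of all genes for FGF19WT and in 12.2% for FGF19ΔKLB. Sik2 was named for its small unadjusted p, so this separation adds no support. Its log2 fold changes were -0.93 in FGF19WT (adjusted p = 0.131) and -0.81 in FGF19ΔKLB (adjusted p = 0.430). Crebbp, a CREB coactivator, was on the high side of vehicle in both FGF19 groups, with log2 fold changes of 0.56 in FGF19WT (adjusted p = 0.168) and 0.48 in FGF19ΔKLB (adjusted p = 0.539).

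The insulin arm gave 0 called of 14. Igfbp1, a target of FOXO1 that insulin represses, had 57.8, 2787 and 1763 CPM in FGF19WT, 78.8, 75.3 and 235 CPM in FGF19ΔKLB, and 33.0, 39.9 and 35.9 CPM in vehicle. Both FGF19 groups lay above vehicle without overlap, with log2 fold changes of 5.40 in FGF19WT (adjusted p = 0.125) and 1.84 in FGF19ΔKLB (adjusted p = 0.706). Igfbp1 was named for its small unadjusted p, and the share of all genes above vehicle without overlap is not given here. Igfbp1 and G6pc, both known FOXO1 targets, ranked the FGF19WT libraries in the same order, with library 2 highest and library 1 lowest. Pck1, another FOXO1 target, ranked them in the reverse order, with 1993, 43.3 and 49.7 CPM in FGF19WT libraries 1, 2 and 3. Against vehicle Igfbp1 and G6pc differed. All FGF19WT libraries were above vehicle for Igfbp1, while for G6pc library 2 was inside the range of vehicle and libraries 1 and 3 were below it. Trib3, an inhibitor of AKT, had 37.7, 128 and 158 CPM in FGF19WT and 14.9 to 27.6 CPM in vehicle, and Irs1 had 13.5, 52.7 and 71.2 CPM in FGF19WT and 10.5 to 19.7 CPM in vehicle.

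Transcription factors of the pathway gave 0 called of 17, fasting and feeding genes 0 of 13, and clock genes 0 of 11. Foxa2, a hepatocyte pioneer factor, had a log2 fold change of 0.41 in FGF19WT (adjusted p = 0.262) and 0.49 in FGF19ΔKLB (adjusted p = 0.523). Cebpb stood at -0.71 in FGF19WT (adjusted p = 0.267) and -1.15 in FGF19ΔKLB (adjusted p = 0.364), and Esrrg, an oestrogen-related receptor, at 0.79 in FGF19WT (adjusted p = 0.300) and -0.84 in FGF19ΔKLB (adjusted p = 0.615). Pdk4, a kinase that spares pyruvate in the fasted state, had 3.21, 116 and 47.8 CPM in FGF19WT, 6.56, 2.48 and 3.28 CPM in FGF19ΔKLB, and 12.4, 6.66 and 9.38 CPM in vehicle. Angptl4, an inhibitor of lipoprotein lipase, was below vehicle in all libraries of both groups, at 68.8 to 82.6 CPM in FGF19WT, 70.6 to 81.8 CPM in FGF19ΔKLB and 96.7 to 126 CPM in vehicle. It was named for its small unadjusted p, and 11.6% of all genes were lower without overlap in FGF19WT and 12.2% in FGF19ΔKLB. Npas2, a clock activator, had 0.645, 14.7 and 17.4 CPM in FGF19WT, against 0.556 to 1.24 CPM in vehicle. Per2 had 50.4, 10.4 and 18.3 CPM in FGF19WT and 21.8 to 37.4 CPM in vehicle, and Arntl had 1.47, 15.9 and 13.1 CPM in FGF19WT and 2.31 to 5.74 CPM in vehicle. Pnpla3, a lipid droplet protein that feeding induces, had 1.597, 0.185 and 0.624 CPM in FGF19WT, 13.8, 8.94 and 5.91 CPM in FGF19ΔKLB, and 0.187, 1.98 and 0.435 CPM in vehicle, with a log2 fold change of 3.46 in FGF19ΔKLB (adjusted p = 0.392). FGF19WT libraries 2 and 3 were above vehicle in Pdk4, Npas2 and Arntl and below it in Per2. FGF19WT library 1 was below vehicle in Pdk4 and Arntl, above it in Per2 and inside its range in Npas2. The part of feeding and clock genes in the values of the 8 genes was not tested.

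The medians of these 7 lists changed with the FGF19WT libraries used. Over 9 libraries, for FGF19WT against vehicle the median log2 fold change was -0.21 for other enzymes, -0.51 for substrate supply, 0.03 for the glucagon arm, -0.04 for the insulin arm, -0.10 for transcription factors, -0.14 for fasting and feeding genes and -0.12 for clock genes. These medians without FGF19WT library 1 were -0.28, -0.55, -0.0085, -0.16, -0.22, -0.53 and -0.99 in that order. With that library as the only FGF19WT one they were -0.24, -0.0524, 0.0143, 0.0872, 0.0852, -0.51 and 0.62, and 0 genes of the 7 lists were called. The clock genes thus had a median below 0 without library 1 and above 0 with it alone. For FGF19ΔKLB against vehicle the medians were -0.16, -0.15, 0.03, 0.01, 0.01, -0.30 and 0.21 in that order. Without FGF19WT library 1, where 27.4% of all genes were called, FGF19WT against vehicle called 5 higher and 8 lower of 20 substrate genes, 3 and 5 of 20 in the glucagon arm, and 3 and 3 of 14 in the insulin arm. It called 0 higher and 5 lower of 17 transcription factors, 2 and 3 of 13 fasting and feeding genes, and 2 and 5 of 11 clock genes.

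**Figure D4:**
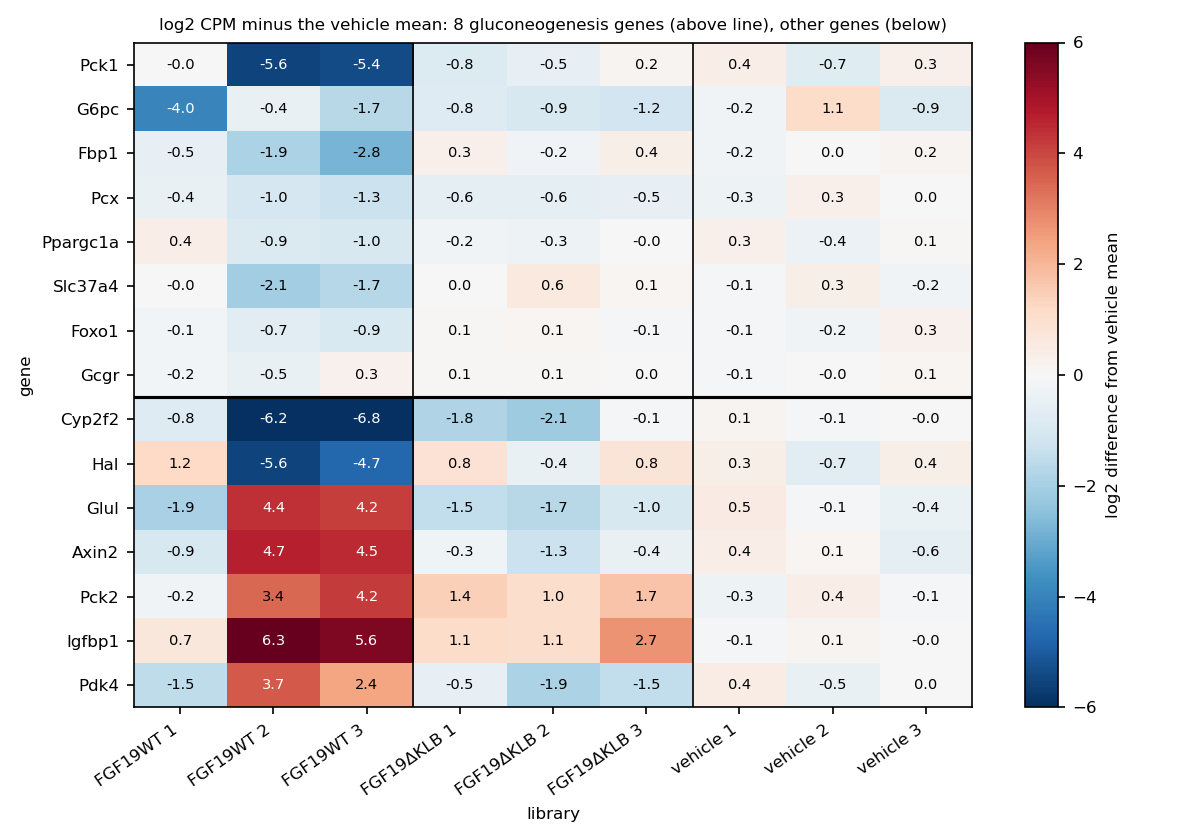
Log2 CPM of each gene in each library minus the mean of log2 CPM in vehicle, as coloured cells with the value written in, for the 8 gluconeogenesis genes above the line and 7 other genes below it. FGF19WT libraries 2 and 3 show Pck1 at -5.6 and -5.4, zone markers shifted in opposite directions (Cyp2f2 and Hal low, Glul and Axin2 high) and Pck2, Igfbp1 and Pdk4 high; FGF19WT library 1 shows G6pc at -4.0.

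The markers of lobular zones split along the same libraries as Pck1. Cyp2f2, a periportal cytochrome P450, had 307, 7.39 and 4.83 CPM in FGF19WT, against 122 to 489 CPM in FGF19ΔKLB and 491 to 584 CPM in vehicle. Glul, the glutamine synthetase of the cells around the central vein, had 185, 14770.2 and 12685 CPM in FGF19WT, against 224 to 364 CPM in FGF19ΔKLB and 549 to 1000.0 CPM in vehicle. Hal, a periportal histidine-degrading enzyme, had 816, 7.43 and 13.5 CPM in FGF19WT, against 261 to 636 CPM in FGF19ΔKLB and 219 to 453 CPM in vehicle. Axin2, a target of Wnt signalling, had 2.40, 118 and 102 CPM in FGF19WT, against 1.90 to 3.84 CPM in FGF19ΔKLB and 3.15 to 6.18 CPM in vehicle. Of the periportal markers, 11 of 12 were below all other 7 libraries in FGF19WT libraries 2 and 3, and of the pericentral markers 14 of 14 were above. Of all genes tested, 3441 of 18142 were below in this way, and the share above is not given here. Of the general hepatocyte markers, 6 of 11 were below in this way. Of the markers of other liver cells, FGF19WT libraries 2 and 3 were below all other 7 libraries in 9 of 10 for Kupffer cells, 7 of 8 for sinusoidal endothelium and 7 of 7 for B and plasma cells, but in 1 of 8 for T and NK cells, 4 of 8 for stellate cells and 3 of 6 for cholangiocytes. The 10 Kupffer cell markers summed to 238, 79.9 and 36.4 CPM in FGF19WT, 201 to 256 CPM in FGF19ΔKLB and 240.4 to 355 CPM in vehicle. Sinusoidal endothelial markers (8 genes) summed to 161, 43.1 and 24.5 CPM in FGF19WT, against 70.1 to 103 CPM in FGF19ΔKLB and 127 to 149 CPM in vehicle. T and NK cell markers (8 genes) summed to 5.32, 1.67 and 2.19 CPM in FGF19WT, 2.30 to 4.29 CPM in FGF19ΔKLB and 7.58 to 16.2 CPM in vehicle, and B and plasma cell markers (7 genes) to 28.1, 5.49 and 3.43 CPM in FGF19WT, 29.8 to 69.7 CPM in FGF19ΔKLB and 102 to 244 CPM in vehicle. Stellate cell markers (8 genes) summed to 272, 259.8 and 231 CPM in FGF19WT, 139 to 279 CPM in FGF19ΔKLB and 353 to 395 CPM in vehicle, and cholangiocyte markers (6 genes) to 33.1, 34.9 and 15.9 CPM in FGF19WT, 26.4 to 59.2 CPM in FGF19ΔKLB and 49.5 to 63.5 CPM in vehicle. In all 4 lists both FGF19 groups reached lower sums than vehicle, with overlap for cholangiocytes in FGF19ΔKLB. General hepatocyte markers (11 of 12 in the table) summed to 126044 to 238745 CPM in FGF19WT, 250532 to 340283 CPM in FGF19ΔKLB and 139278 to 191904 CPM in vehicle, and pancreas markers (3 of 8 in the table, nearly all of it Cela1) to 12.4 to 55.7 CPM in FGF19WT, 9.64 to 14.2 CPM in FGF19ΔKLB and 6.69 to 7.57 CPM in vehicle. Of the markers of these lists that are in the table, none was at 0 in all libraries. The part of these markers in the levels of the gluconeogenesis genes was not tested.

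The genes with the most similar profiles over the 9 libraries differed from member to member. Likeness was the root mean square difference between log2 CPM profiles, each centred on its own mean, over 9535 other genes that averaged 5 CPM or more and had a count in every library. Nearest to Pck1 were Bdh2 (0.29) and Ass1 (0.33), and Ass1, the periportal urea cycle enzyme, had 1345, 27.2 and 28.7 CPM in FGF19WT, against 897 to 1163 CPM in FGF19ΔKLB and 1085 to 1879 CPM in vehicle. Slc37a4 was most like Slc20a1 (0.18) and Slc2a2 (0.20), the glucose transporter of the hepatocyte membrane, which had 441, 118 and 150.3 CPM in FGF19WT, 430.3 to 460.1 CPM in FGF19ΔKLB and 366 to 521 CPM in vehicle. Fbp1 was nearest to Tmem268 (0.26) and Urah (0.28), Pcx to Mtor (0.11) and Coasy (0.12), and Foxo1 to Pot1a (0.11) and Slc31a1 (0.12). Ppargc1a was nearest to Dcun1d4 and Irgm1 (0.13 each) and Gcgr to Mettl17 (0.04) and Rrnad1 (0.09). For G6pc the nearest genes were far off, at 0.72 each for Tmem56 and AC124502. Among the 8 genes themselves, Foxo1 was the nearest to Ppargc1a (0.29), Pcx (0.33) and Gcgr (0.38), and Fbp1 and Slc37a4 were nearest to each other (0.48). Profiles were not scaled for range, so genes that vary little lie near one another whatever their course. Among 9535 genes, the nearest other member ranked 162 for Fbp1, 257 for Pck1, 340 for Slc37a4 and 346 for Ppargc1a. It ranked 482 for G6pc, 701 for Pcx, 1150 for Foxo1 and 5185 for Gcgr. The ranks that randomly drawn genes would reach were not computed, so the ranks do not say whether the members are alike or unlike.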

How the data were processed

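Liver RNA libraries (9, 3 per group) were compared from the deposited table, in which the authors give each gene's expected count and FPKM in every library. The deposited counts are whole numbers and were entered unscaled, with about 4 counts taken to stand for 1 read pair. The submitters' processing notes name Bowtie 0.12.2, HISAT2 2.0, StringTie 1.3.0 and the build mm8 without their roles. Gene identifiers matched GENCODE M21 (28517 of 28517), and 28480 also in chromosome and start on GRCm38, so coordinates are on that build. How genes were counted with respect to strand is not given in the sources used here.

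The test was that of edgeR 4.0.16 under R 4.3.3 (robust quasi-likelihood, TMM factors, filterByExpr, group as the only term, all 9 libraries, 6 residual degrees of freedom), and p-values were adjusted by Benjamini-Hochberg over all 18142 genes, with a call at an adjusted p under 0.05. CPM are counts over TMM-scaled library totals. Means carry the SD over 3 libraries. The alternatives were to drop the filter or raise it to 5 CPM in 3 libraries, size factors or the Wald test of DESeq2 1.42.0, limma 3.58.1 on log2(FPKM + 1) or log2(FPKM + 0.1), the 6 libraries of each pair of groups, the replicate number as a block, counts divided by 4, and leaving libraries out. The procedure was tested on simulated counts in which all libraries of a group were shifted alike. That test does not cover a group whose libraries differ as those of FGF19WT do. The members, gene lists and alternatives were chosen with earlier results of these data known. Genes named beyond the 8 are the 3 per list with the smallest unadjusted p over the 3 comparisons, the zone markers Glul, Axin2, Cyp2f2 and Hal, and the nearest genes by profile; called genes of the 6-library fits (Gpt2, Slc25a10, Nr4a2) are named to spell out a count.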

Additional observations from a re-analysis of the deposited data

How the results depend on the processing

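The direction of FGF19WT against vehicle held for Pck1, G6pc, Fbp1, Pcx, Slc37a4 and Foxo1 under every alternative; Ppargc1a turned to 0.35 without FGF19WT libraries 2 and 3 together. Genes called for FGF19WT against vehicle numbered 20 in the reported fit, 1743 with DESeq2, 48 with limma on log2(FPKM + 1), 39 on log2(FPKM + 0.1), 45 without a filter on FPKM, 1 over 6 libraries and 1 with the replicate block, and 0 to 5221 with 1 library left out. For FGF19ΔKLB against vehicle the reported 2 became 11 without a filter, 13 with the 5 CPM filter, 370 with DESeq2, 38, 17 and 45 with the limma settings in the same order, 292 over 6 libraries, 0 with the replicate block, 4 with counts divided by 4, 303 without FGF19WT libraries 2 and 3 together, and 0 to 172 with 1 library left out. For FGF19ΔKLB against FGF19WT the reported 0 became 834 with DESeq2, 1 on log2(FPKM + 0.1), 2 without a filter on FPKM, 1 over 6 libraries, 7 without FGF19WT libraries 2 and 3 together, and 0 to 3846 with 1 library left out. Of the 8 genes, DESeq2 called 1 for FGF19WT against vehicle (Pcx) and 1 for FGF19ΔKLB against FGF19WT (Fbp1). Leaving out 1 library gave 0 to 6 and 0 to 5 in these comparisons. DESeq2 gave Pck1 a log2 fold change but neither a p nor an adjusted p in any comparison, so it could not call Pck1. The causes were not tested.

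Some estimates near 0 changed sign. For FGF19ΔKLB against vehicle, Foxo1 was -0.0148 with the 5 CPM filter, -0.0129 with DESeq2 size factors and with DESeq2, -0.12, -0.15 and -0.12 with the limma settings, and -0.0005 with the replicate block, with a range of -0.10 to 0.15 with 1 library left out. Fbp1 was -0.0201 in all 3 limma settings, and Gcgr was -0.10, -0.11 and -0.10. For FGF19ΔKLB against FGF19WT, Gcgr was -0.0122, -0.0121 and -0.0122, and without FGF19WT libraries 2 and 3 together Pck1 was -0.31, Pcx -0.11 and Ppargc1a -0.54. On log2(FPKM + 0.1) the median of all genes itself was -0.12 and -0.17 in these comparisons. With 1 library left out, FGF19WT against vehicle ranged from -0.30 to 0.0636 for Gcgr, and FGF19ΔKLB against FGF19WT from -0.0199 to 1.44 for G6pc, -0.0487 to 0.76 for Ppargc1a and -0.0081 to 0.36 for Gcgr. Same-numbered libraries deviated together with correlations of -0.05 to 0.17 over 15811 genes. With 3 libraries per group, such values cannot exclude a pairing or batch shared by number. The replicate block called 0 of the 8 genes in each comparison, and with it Pck1 in FGF19WT against vehicle was -3.05 (adjusted p = 0.333). With 3 libraries against 3, an exact permutation test of 1 value could not go below 0.1, and without FGF19WT libraries 2 and 3 the lone library is assumed to vary like the other groups.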

Other observations

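The low G6pc of FGF19WT library 1 was looked at after its value had been seen. At 11.7 CPM it was 4.91 times below the next lowest library, and it rested on 800 counts. The other 5 genes with at least that ratio were Tmem56 (14.5 CPM in that library, against at least 104 CPM in the other 8), Ccser2 (0.806 against at least 18.96 CPM), BC002163 (0.469 against at least 16.2 CPM), Gm43305 (3.06 against at least 16.7 CPM) and Klhdc7a (listed at 0 against at least 3.64 CPM). In the same library Fbp1, Pcx and Gcgr also lay below all vehicle libraries, by less: Fbp1 had 581 CPM, against 719 to 917 CPM in vehicle, Pcx had 452 CPM, against 497 to 759 CPM in vehicle, and Gcgr had 189 CPM, against 198 to 224 CPM in vehicle. Pck1, Slc37a4 and Foxo1 lay inside the range of vehicle there, and Ppargc1a lay above it. The share of all genes with FGF19WT library 1 below all vehicle libraries was not counted, so these positions are not read as particular to the 8 genes.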
